A study of Mus musculus with 7 samples.

Results

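The miR-144/miR-451 cluster is a pair of neighbouring miRNA hairpins from which 3 mature miRNAs were read in the mouse hippocampus: mmu-miR-451, mmu-miR-144 and mmu-miR-144*, called miR-451, miR-144 and miR-144* from here on. They were chosen by name and place in the genome, not by a measured value, and make up 3 of the 757 mature miRNA sequences with a value in these libraries and 3 of the 476 that averaged 10 reads or more and were tested. The series is small RNA sequencing of 7 libraries of pooled hippocampal tissue from male C57BL/6 mice aged 3 to 5 months. It crosses genotype (control or NIPP1*) with experience (trained on an object recognition task, or non-trained, which means placed in the training chamber alone). In NIPP1* mice, doxycycline turns on an EGFP-tagged fragment of NIPP1, a protein that inhibits protein phosphatase 1 (PP1) in the nucleus. Expression needs 2 transgenes, tetO ahead of the fragment and a doxycycline-dependent activator made from the CaMKIIalpha promoter, which is active in forebrain neurons. Controls are littermates, labelled wildtype. By its label, library 1 is non-trained control, library 2 non-trained NIPP1*, libraries 3, 4 and 5 are trained control, and libraries 6 and 7 trained NIPP1*. How the mice of a trained group were divided among its libraries is not given in the sources used here, so p-values measure the spread between these libraries, and small RNA reads do not show whether the transgene was on.

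The hairpins of miR-144 and miR-451 are cut from a single primary transcript, which the erythroid factor GATA1 activates as red blood cells mature, and miR-451 is among the most abundant miRNAs of those cells. The hairpin of miR-144 follows the usual path, in which Drosha and then Dicer cut out a duplex and either strand may be kept, miR-144 being the strand from the 3′ arm and miR-144* the strand from the 5′ arm. The hairpin of miR-451 is too short for Dicer: Ago2 slices it and the end is then trimmed. miR-451 therefore runs from the 5′ arm into the loop and has no partner strand. Brain tissue holds red blood cells inside its vessels unless it is perfused, and whether it was is not given in the sources used here.

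The mature sequences are shown first because they identify the 3 members and carry the seeds that guide target choice, with the seed (bases 2 to 8) in capitals. They are RefSeq sequences, whose names are miR-451a, miR-144-3p and miR-144-5p, and each lies exactly at a locus of the deposited files in build NCBI37/mm9 on the plus strand.
miR-451: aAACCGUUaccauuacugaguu
miR-144: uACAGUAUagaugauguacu
miR-144*: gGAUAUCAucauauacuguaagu
miR-451 (22 nt) is at chr11:77886688-77886709, miR-144 (20 nt) at chr11:77886549-77886568 and miR-144* (23 nt) at chr11:77886512-77886534. The 3 seeds differ, so the members form no seed family among themselves. A search of 1679 RefSeq mouse mature names found none that shared bases 2 to 8 with a member, and 1 that shared bases 2 to 7, miR-101a-3p, whose sequence is given to show the match with miR-144.
miR-101a-3p: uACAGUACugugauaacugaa

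The hairpins show the difference in structure that goes with the different routes of maturation, with the mature miRNAs in capitals.
Mir451: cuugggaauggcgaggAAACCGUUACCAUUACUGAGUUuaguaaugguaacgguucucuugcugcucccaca
Mir144: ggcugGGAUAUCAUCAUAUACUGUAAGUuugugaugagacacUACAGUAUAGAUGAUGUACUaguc
The Mir451 hairpin (72 nt, chr11:77886672-77886743) folded in RNAfold with 30 base pairs around a terminal loop of 4 nt. Bases 17 to 38 of that hairpin are miR-451, and 4 of its 22 bases lay in the loop. The Mir144 hairpin (66 nt, chr11:77886507-77886572) folded with 27 base pairs around a loop of 6 nt, and neither of its mature strands reached into the loop. The hairpins are 99 bp apart and span 237 bp together. No other gene of the GENCODE annotation overlaps that span, the nearest being Eral1, 134 bp downstream on the minus strand, and Flot2, 12570 bp upstream on the plus strand. The cluster is thus intergenic in this annotation.

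All 3 members were detected in every library. Levels are given in RPM, the share of a library's miRNA reads in parts per 1000000, from 7285456 to 10017750 miRNA reads in a library, and 1 read is worth 0.0998 to 0.137 RPM. In the order of the library numbers, miR-451 was at 106.6, 81.26, 114.9, 57.23, 57.94, 119.6 and 229.3 RPM, on 948, 656, 942, 478, 453, 871 and 2297 reads. Library 7 was highest and libraries 4 and 5 lowest, and the exact 95% counting intervals of libraries 4 and 5 (52.2 to 62.6 and 52.7 to 63.5 RPM) overlapped, as did those of libraries 3 and 6 (107.7 to 122.4 and 111.7 to 127.8 RPM). miR-144 was at 9.34, 3.72, 10.61, 4.67, 4.35, 12.49 and 21.56 RPM, on 83, 30, 87, 39, 34, 91 and 216 reads. miR-144* was at 10.57, 5.08, 12.32, 4.31, 4.48, 13.04 and 20.86 RPM, on 94, 41, 101, 36, 35, 95 and 209 reads. Both strands of the miR-144 hairpin were therefore highest in library 7 and next highest in libraries 6, 3 and 1, and in libraries 2, 4 and 5 their counting intervals overlapped. The intervals cover counting error only, because amplified reads are not independent molecules, and in bulk tissue more cells of a type and more RNA per cell cannot be told apart.

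**Figure D1:**
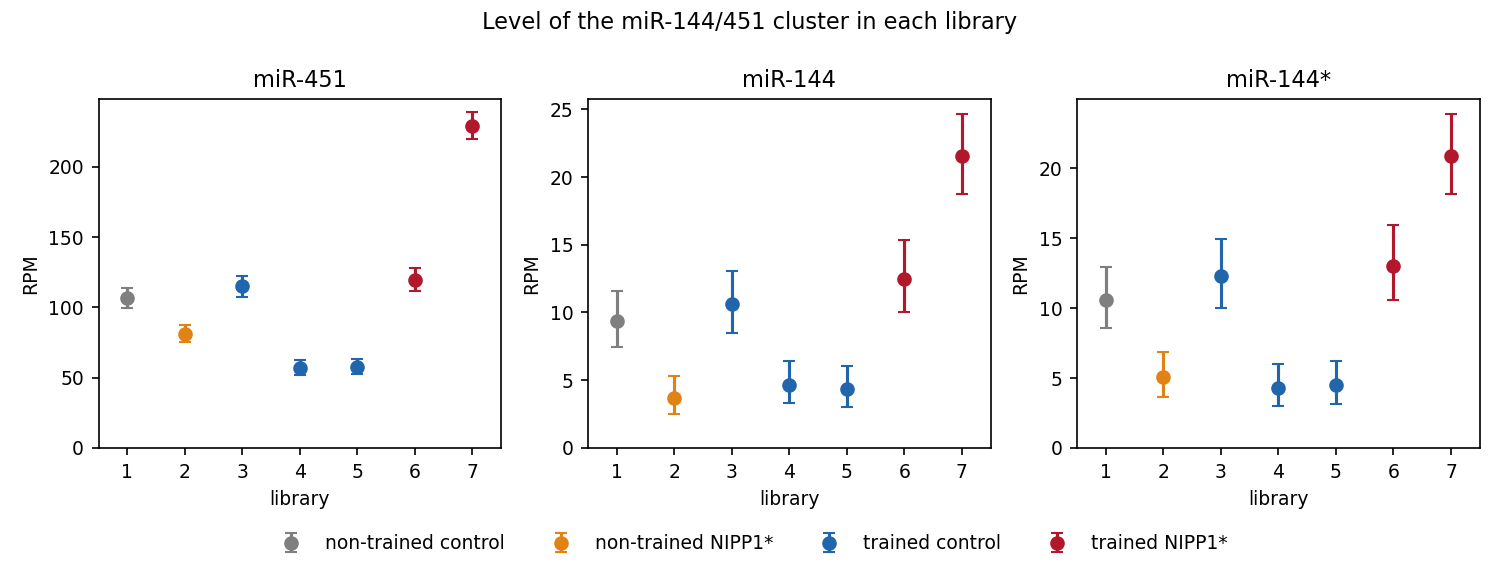
Level of miR-451, miR-144 and miR-144* (RPM, vertical axis from 0) in libraries 1 to 7, coloured by labelled group, with exact 95% counting intervals as bars. Library 7 is highest in all 3 panels, and libraries 3 and 6, labelled with different genotypes, lie close together.

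Together the 3 members took 0.00662% to 0.0272% of the miRNA reads of a library. miR-451 supplied 82.4% to 90.2% of that sum and ranked 178 of 757 sequences by mean level, while miR-144* ranked 330 and miR-144 ranked 336. The cluster was rare beside the neuronal miRNAs of the tissue: miR-9, a miRNA of the nervous system, was at 107500 to 149800 RPM, and miR-124, which marks neurons, at 3637 to 5135 RPM.

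The members stood out less by their level than by how far they varied between libraries. The highest library exceeded the lowest 4.01-fold for miR-451, 5.80-fold for miR-144 and 4.84-fold for miR-144*. The SD of log2(RPM + 0.5) over the 7 libraries was 0.69, 0.88 and 0.84 in that order, against a median of 0.22 over the 476 tested miRNAs, which placed miR-144 at rank 9, miR-144* at rank 10 and miR-451 at rank 15. Rarer miRNAs scatter more through counting. The members were therefore also set beside miRNAs within 2-fold of their own level, with the member itself counted in each set and each number. For miR-451, 3 of 74 had an SD at least as large (median of the set 0.19). For miR-144 it was 2 of 105 (median 0.25), and for miR-144* 3 of 102 (median 0.24), miR-144 among them. Part of this spread lay between libraries that share a label. Within the trained groups the SD was 0.60 for miR-451, 0.63 for miR-144 and 0.71 for miR-144*, against a median of 0.20 (ranks 24, 23 and 20 of 476).

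**Figure D2:**
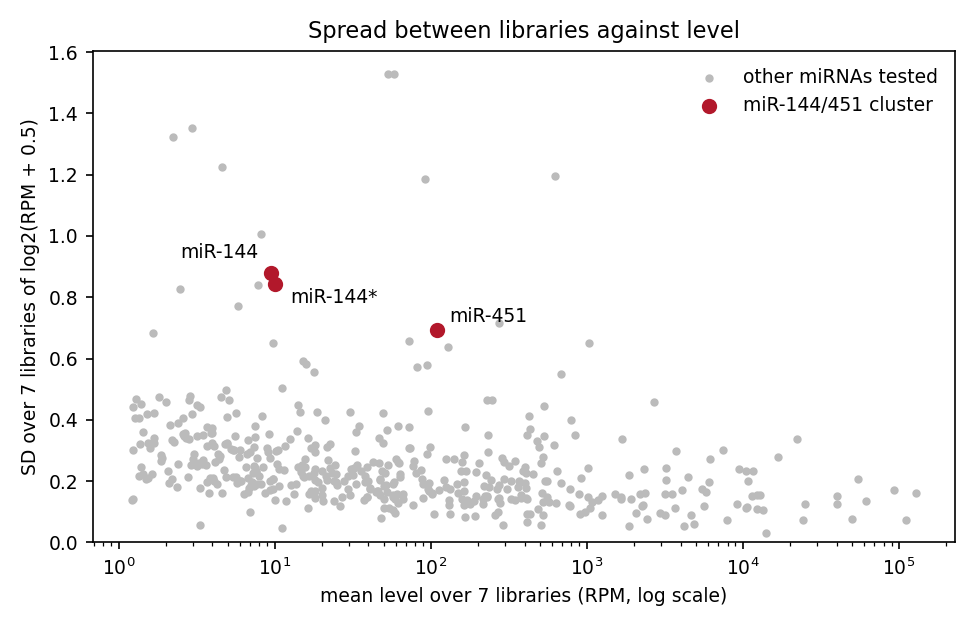
SD over the 7 libraries of log2(RPM + 0.5) against mean level (RPM, log scale) for the 476 tested miRNAs, with the members of the cluster in red. The 3 red points lie at 0.69 to 0.88, above most miRNAs of like level, whose medians are 0.19 to 0.25.

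The 3 members varied together. Over the 7 libraries, Pearson's r of log2(RPM + 0.5) was 0.93 between miR-451 and miR-144 (exact permutation p = 0.00516, 0.00516 after Benjamini-Hochberg adjustment over the 3 pairs), with Spearman's rho of 0.857 (exact permutation p = 0.0238, adjusted p = 0.0238). Between miR-451 and miR-144*, r was 0.96 (exact permutation p = 0.000198, the smallest that these permutations can give, adjusted p = 0.000595) and rho was 1 (exact permutation p = 0.000397, adjusted p = 0.00119). Between the strands of the miR-144 hairpin, r was 0.98 (exact permutation p = 0.00258, adjusted p = 0.00387) and rho was 0.857 (exact permutation p = 0.0238, adjusted p = 0.0238). The relations did not rest on the 2 libraries farthest from the median of the first-named member, without which r was 0.88, 0.95 and 0.99. The points share the library totals and the labelled groups, the labels name no sequencing batch, and no group holds the 6 libraries that a correlation within a group would need.

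The strands of the miR-144 hairpin were recovered in nearly equal amounts. The ratio of miR-144 to miR-144* reads was 0.883, 0.732, 0.861, 1.08, 0.971, 0.958 and 1.03 in libraries 1 to 7, and each exact 95% counting interval included 1. Pooled over the libraries, 580 reads were miR-144 and 611 miR-144*, a ratio of 0.949 (95% counting interval 0.846 to 1.07). Of the 111 annotated hairpins with exactly 2 mature sequences, each at a single locus and averaging 30 reads or more, that of miR-144 was the closest to equal, with a median log2 ratio of -0.06 over the libraries (SD 0.19). Next came Mir708 at -0.16, which is within that SD of it, and Mir345 at 0.18. The median over the 111 hairpins of the size of this ratio was 3.78.

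Reads of miR-451 outnumbered those of miR-144 by 9.57-fold to 21.9-fold. The ratio was 11.4 in library 1, 21.9 in library 2, 10.8, 12.3 and 13.3 in libraries 3, 4 and 5, and 9.57 and 10.6 in libraries 6 and 7. Library 2 lay apart: the lower end of its exact 95% counting interval (15.2 to 32.7) was above the ratio of each other library, although it overlapped the intervals of libraries 4 (upper end 17.5) and 5 (upper end 19.5). The ratio of miR-451 to miR-144* was also highest in library 2, at 16 against 9.17 to 13.3 in the others. Library 2 holds 30 reads of miR-144, the fewest of any library, and is the only non-trained NIPP1* library, so whether its ratio belongs to the group or to the library cannot be told apart.

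**Figure D3:**
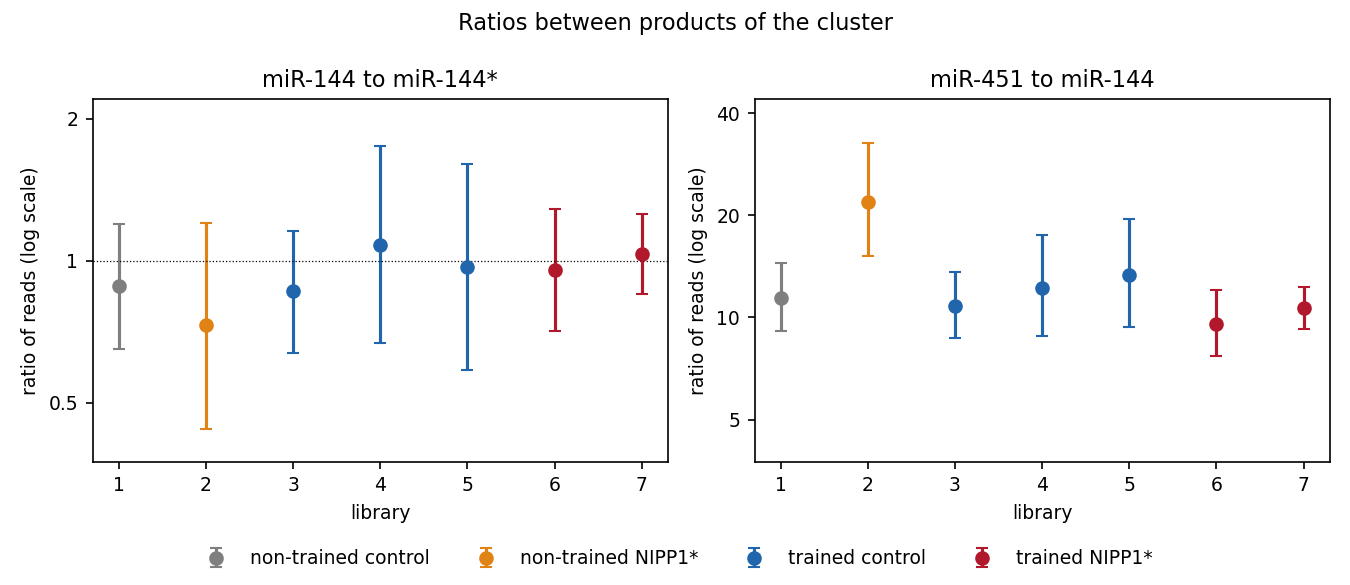
Ratio of miR-144 to miR-144* reads (left) and of miR-451 to miR-144 reads (right) in libraries 1 to 7 on log axes, coloured by labelled group, with exact 95% counting intervals; the dotted line marks equal reads. The left panel stays near 1 in every library, and the right panel stands at 21.9 in library 2 and at 9.57 to 13.3 elsewhere.

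The assignment of the trained libraries is in doubt, which bears on each direction given from here on. The authors' own tables of group means were rebuilt from the libraries over 319 miRNAs. Their trained control means were matched by libraries 6 and 7 with a relative error (root mean square over miRNAs) of 0.0196%, and by the libraries labelled trained control with one of 18.3%. For their trained NIPP1* means the error was 0.0300% with libraries 3, 4 and 5 and 18.8% with the libraries labelled trained NIPP1*. For miR-451 the authors' mean in their trained control group is 1407 reads after division by size factors, and in their trained NIPP1* group 640.2. Comparisons here follow the labels, and those of the members are also given with the trained libraries exchanged. A difference between the trained groups changes only its sign under the exchange, which holds for the other miRNAs given too. The non-trained pair, and training over both genotypes together, do not depend on this.

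The first question is whether inhibition of nuclear PP1 changes the miRNAs of trained mice. By the labels, miR-451 was at 114.9, 57.23 and 57.94 RPM in the trained controls and at 119.6 and 229.3 RPM in trained NIPP1*, with means of 76.7 ± 33.1 RPM (SD, n = 3) and 174.4 ± 77.6 RPM (SD, n = 2). The groups did not overlap, although library 6 exceeded library 3 by less than their counting intervals. miR-144 averaged 6.54 ± 3.53 RPM (SD, n = 3) against 17.0 ± 6.41 RPM (SD, n = 2), and miR-144* 7.04 ± 4.58 RPM (SD, n = 3) against 16.9 ± 5.53 RPM (SD, n = 2), again without overlap. Such an order, with both NIPP1* libraries above all 3 controls, was found for 18.7% of the tested miRNAs. In limma, fitted over all miRNAs and all 7 libraries, the log2 difference was 1.19 for miR-451 (SE 0.39), 1.37 for miR-144 (SE 0.42) and 1.33 for miR-144* (SE 0.46). By size these ranked 4, 2 and 3 among the 476 miRNAs. None of the 3 passed the test, each with a limma adjusted p of 0.639, and limma called 0 of 476 miRNAs (0%), with 34 at an unadjusted p under 0.05 (7.14%), the 3 members among them. edgeR called 0 and DESeq2 called 1, which was not a member. Without library 7 the limma difference of miR-451 was 0.72, and without library 7 or without library 5 no member had an unadjusted p under 0.05. The count of all miRNAs under 0.05 moved too, to 113 (23.7%) without library 3, 17 without library 4, 11 without library 5, 15 without library 6 and 10 without library 7. Library 3 stood apart from the libraries that share its label, with a chi-square per degree of freedom over the 476 miRNAs of 285 and 396 against libraries 4 and 5, which gave 67.0 between themselves. Exchanging the trained libraries turned the differences to -1.19, -1.37 and -1.33.

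The non-trained pair gives the same contrast in 1 library each. miR-451 was at 106.6 RPM in the non-trained control and 81.26 RPM in non-trained NIPP1*, a log2 ratio of -0.39 (exact 95% counting interval -0.54 to -0.25). miR-144 was at 9.34 and 3.72 RPM, a log2 ratio of -1.33 (-1.98 to -0.71), and miR-144* at 10.57 and 5.08 RPM, a log2 ratio of -1.06 (-1.62 to -0.51). All 3 values were lower in the NIPP1* library by more than counting error. In the limma fit of all 7 libraries, chosen for this pair after seeing the data and taking the spread from the trained groups, the log2 differences were -0.39 (SE 0.60), -1.22 (SE 0.65) and -0.99 (SE 0.71), each with an adjusted p of 0.998. limma, edgeR and DESeq2 each called 0 of 476 miRNAs (0%), and 14 had an unadjusted limma p under 0.05 (2.94%), no member among them. Of the 482 miRNAs that averaged 10 reads or more in this pair, 14 differed by a log2 ratio of 1 or more in size (2.9%) and 7 of these were lower in NIPP1* (1.45%), miR-144 and miR-144* among them. At 100 reads or more it was 3 of 322 (0.932%), miR-451 not among them.

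The second question is the effect of training. In controls, miR-451 was at 106.6 RPM in the non-trained library and at 57.23 to 114.9 RPM in the trained ones, so that the non-trained value lay inside the trained range. The same held for miR-144, at 9.34 RPM against 4.35 to 10.61 RPM, and for miR-144*, at 10.57 RPM against 4.31 to 12.32 RPM. The overlap was gone once the trained libraries were exchanged, since libraries 6 and 7 were above library 1 for each member, as for 28.8% of the tested miRNAs. The limma log2 differences were -0.55 for miR-451 (SE 0.49, adjusted p = 0.719), -0.59 for miR-144 (SE 0.53, adjusted p = 0.719) and -0.71 for miR-144* (SE 0.58, adjusted p = 0.712). limma called 0 of 476 miRNAs (0%), as did edgeR, while DESeq2 called 1. At an unadjusted limma p under 0.05 there were 28 miRNAs (5.88%) and no member. Without library 3 the differences were -0.88, -0.97 and -1.18, and both strands of miR-144 then had an unadjusted limma p under 0.05, with adjusted p of 0.180 and 0.115, as had 108 of the 476 miRNAs (22.7%) in that fit. Without library 5 that of miR-144 was -0.38, and without library 4 that of miR-144* was -0.47. Exchanging the trained libraries gave 0.63, 0.78 and 0.62, with 12 miRNAs at an unadjusted p under 0.05 (2.52%) and no member among them. The non-trained control is a single library, whose spread was taken to be like that of the trained groups.

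In NIPP1* mice, both trained libraries were above the non-trained library for each member, an order shared by 146 of the 476 tested miRNAs (30.7%). Once the trained libraries were exchanged, all 3 trained libraries were above it for miR-144 alone, as for 50 of the 476 (10.5%), while libraries 4 and 5 were below it for miR-451 and miR-144*. miR-451 was at 119.6 and 229.3 RPM against 81.26 RPM, miR-144 at 12.49 and 21.56 RPM against 3.72 RPM, and miR-144* at 13.04 and 20.86 RPM against 5.08 RPM. The limma log2 differences were 1.02 for miR-451 (SE 0.52, adjusted p = 0.973), 2.0 for miR-144 (SE 0.56, adjusted p = 0.834) and 1.61 for miR-144* (SE 0.62, adjusted p = 0.973). By size miR-144 ranked 2 of 476 and miR-144* ranked 5. limma and edgeR called 0 of 476 miRNAs (0%) and DESeq2 called 2, neither of them a member. Both strands of miR-144 were among the 21 miRNAs at an unadjusted limma p under 0.05 (4.41%). With the trained libraries exchanged the differences were -0.16, 0.63 and 0.27, so that the sign of miR-451 turned. They then ranked 246, 21 and 129 by size, with 9 miRNAs at an unadjusted p under 0.05 (1.89%) and no member among them. Without library 7 the difference of miR-451 was 0.55, and without library 5 or library 7 miR-144* no longer had an unadjusted p under 0.05. Without library 3 or library 6 miR-451 did, at 1.02 and 1.49, in fits where 37 (7.77%) and 10 (2.1%) of the 476 miRNAs did.

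Over both genotypes together, training gave limma log2 differences of 0.24 for miR-451 (SE 0.36, adjusted p = 0.946), 0.71 for miR-144 (SE 0.38, adjusted p = 0.873) and 0.45 for miR-144* (SE 0.42, adjusted p = 0.922). None was among the 16 miRNAs at an unadjusted limma p under 0.05 (3.36%), with 0 of 476 called (0%) by limma and by edgeR and 1 by DESeq2. With 1 library left out the estimate for miR-451 ran from 0.0011 (without library 7) to 0.47 (without library 6), and was 0.07 without library 3. That of miR-144* fell to 0.22 without library 3 and 0.28 without library 7. Genotype over both states gave 0.40 for miR-451 (SE 0.36), 0.08 for miR-144 (SE 0.38) and 0.17 for miR-144* (SE 0.42), each with a limma adjusted p of 0.997. At an unadjusted limma p under 0.05 there were 6 miRNAs (1.26%) and no member, and limma, edgeR and DESeq2 each called 0 of 476 (0%). With 1 library left out these ran from 0.16 (without library 7) to 0.63 (without library 6) for miR-451, from -0.11 (without library 7) to 0.27 (without library 3) for miR-144, and from 0.0083 (without library 7) to 0.40 (without library 3) for miR-144*. Each of the 5 trained libraries moved the estimates of both strands by over 1.5 times. With the trained libraries exchanged the values were -0.79, -1.30 and -1.16, with 37 miRNAs at an unadjusted limma p under 0.05 (7.77%), both strands of miR-144 among them, each with an adjusted p of 0.577.

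The training effect in NIPP1* mice less that in controls, a difference of differences, was 1.58 for miR-451 (SE 0.72, adjusted p = 0.696), 2.60 for miR-144 (SE 0.77, adjusted p = 0.577) and 2.32 for miR-144* (SE 0.85, adjusted p = 0.577) in limma. These ranked 8, 4 and 5 of 476 by size. limma and edgeR called 0 of 476 (0%), DESeq2 called 2 that were not members, and 37 miRNAs (7.77%) had an unadjusted limma p under 0.05, the strands of miR-144 among them. Without library 5 or library 7 the value of miR-144* was 2.10 or 1.99 and its unadjusted p was no longer under 0.05, while that of miR-451 came under 0.05 without library 3 (1.91) or library 6 (2.04), in fits where 85 (17.9%) and 21 (4.41%) of the 476 miRNAs did. With the trained libraries exchanged the values were -0.80, -0.15 and -0.35. They then ranked 19, 275 and 102 by size, with 6 miRNAs at an unadjusted p under 0.05 (1.26%) and no member among them.

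**Figure D4:**
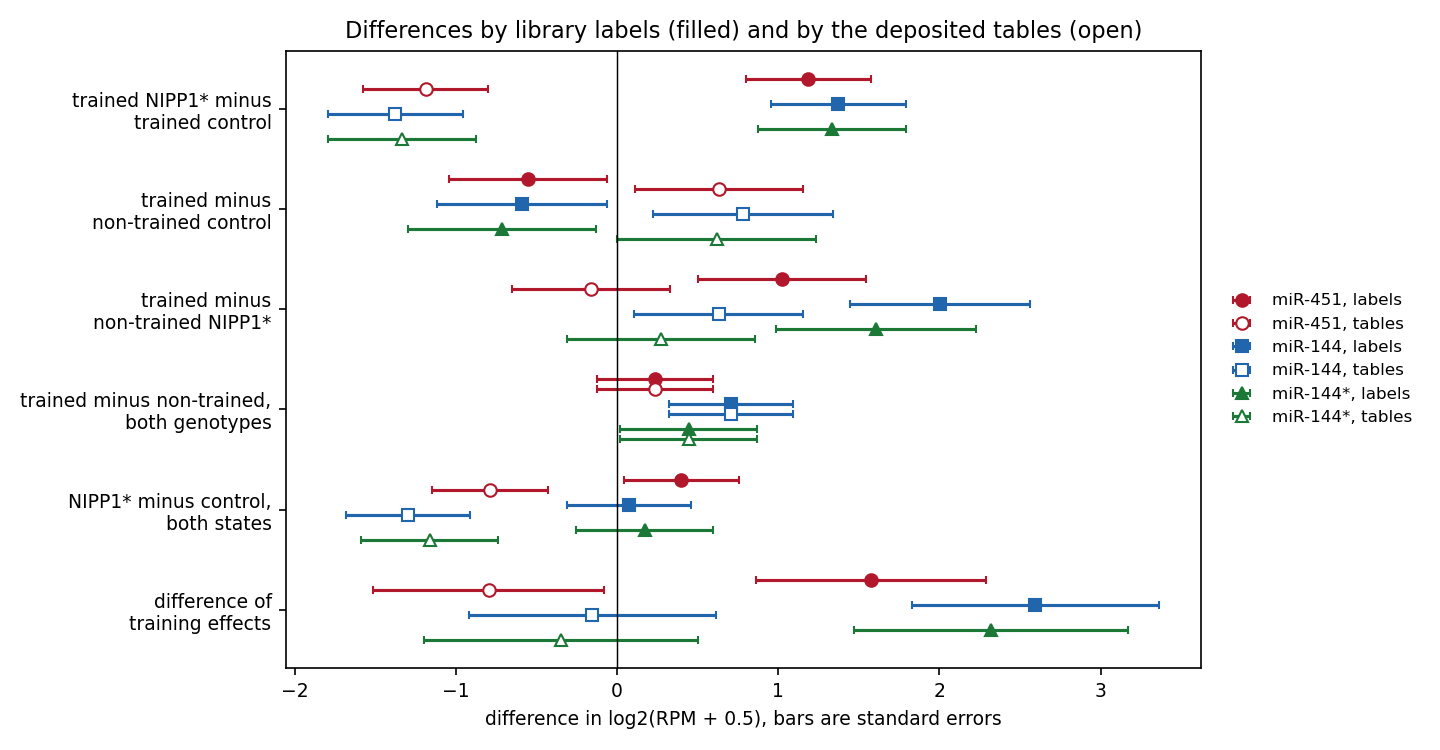
Difference in log2(RPM + 0.5) of each member in 6 comparisons (horizontal axis), with limma standard errors as bars; filled symbols use the labels of the libraries and open symbols exchange the trained libraries as the deposited tables do. The trained genotype difference stands at 1.19 to 1.37 by the labels and at -1.37 to -1.19 by the tables, while training over both genotypes is the same by either.

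A list of other miRNAs of red blood cells was followed beside the cluster. Of its 10 members 9 had a value and 7 were tested, and several are also made by brain cells. Taken singly, the 7 tested ranged from 1.23-fold (miR-15b) to 2.18-fold (miR-210, which responds to low oxygen) between their lowest and highest library. The sum of the 9 measured, mostly miR-16, was 2449 to 3094 RPM. miR-486, an miRNA abundant in red blood cells, was near the limit of detection at 0.62 to 1.68 RPM on 5 to 14 reads (2.71-fold), and miR-106b had 4 to 12 reads (2.35-fold). miR-16, made in most tissues, was at 1459 to 1951 RPM, and miR-15a at 124.4 to 166.7 RPM. miR-92a, of the miR-17/92 family, was at 79.60, 87.02, 76.98, 109.8, 103.3, 85.47 and 68.39 RPM in libraries 1 to 7. It was highest in libraries 4 and 5, where miR-451 was lowest, and lowest in library 7, where miR-451 was highest, with r = -0.94 to miR-451 over the 7 libraries, given as a description. The other tested miRNAs of the list had r of 0.86 (miR-15a), 0.77 (miR-93), 0.70 (miR-15b), 0.58 (miR-16), 0.33 (miR-25) and 0.02 (miR-210). Between the trained groups, as labelled, 5 of the 7 tested were higher in NIPP1* and 2 lower, with a median log2 difference of 0.06 (range -0.35 to 0.27) against 0.04 over all 476, and limma called none.

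The 5 miRNAs of white blood cells and platelets ranged singly from 1.24-fold to 1.67-fold, and miR-223, a miRNA of granulocytes, was at 44.20 to 54.63 RPM. miR-142-3p, found throughout blood cells and microglia, was at 357.0 to 535.7 RPM, lowest in libraries 4 and 5 and highest in library 7, as miR-451 was. miR-150, of lymphocytes, was at 265.3 to 443.5 RPM and highest in library 4. As a description, r to miR-451 was 0.84 for miR-142-3p, 0.76 for miR-142-5p, -0.42 for miR-223 and -0.58 for miR-150. miR-155, on 48 to 80 reads, was not compared in this way. Between the trained groups, 2 of the 5 were higher in NIPP1* and 3 lower, with a median log2 difference of -0.07.

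Vessel wall miRNAs (5 measured) ranged singly from 1.18-fold to 1.58-fold, with miR-126-3p of endothelium at 4252 to 5030 RPM. Their median trained genotype difference was -0.01 on the log2 scale, with 2 higher and 3 lower. The 6 neuronal miRNAs ranged singly from 1.33-fold to 1.52-fold, with a median of 0.13, 4 higher and 2 lower. As a description, their r to miR-451 was 0.84 (miR-124), 0.77 (miR-138), 0.71 (miR-137), 0.56 (miR-9), 0.42 (miR-132) and -0.66 (miR-128). Of the choroid plexus pair, miR-204 was at 400.1 to 1154 RPM, 2.88-fold, with a log2 difference of 0.08, and miR-211 had 0 to 2 reads. limma called no miRNA of the 5 lists in any comparison. The part of blood left in the vessels in the spread of the cluster was not tested.

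**Figure D5:**
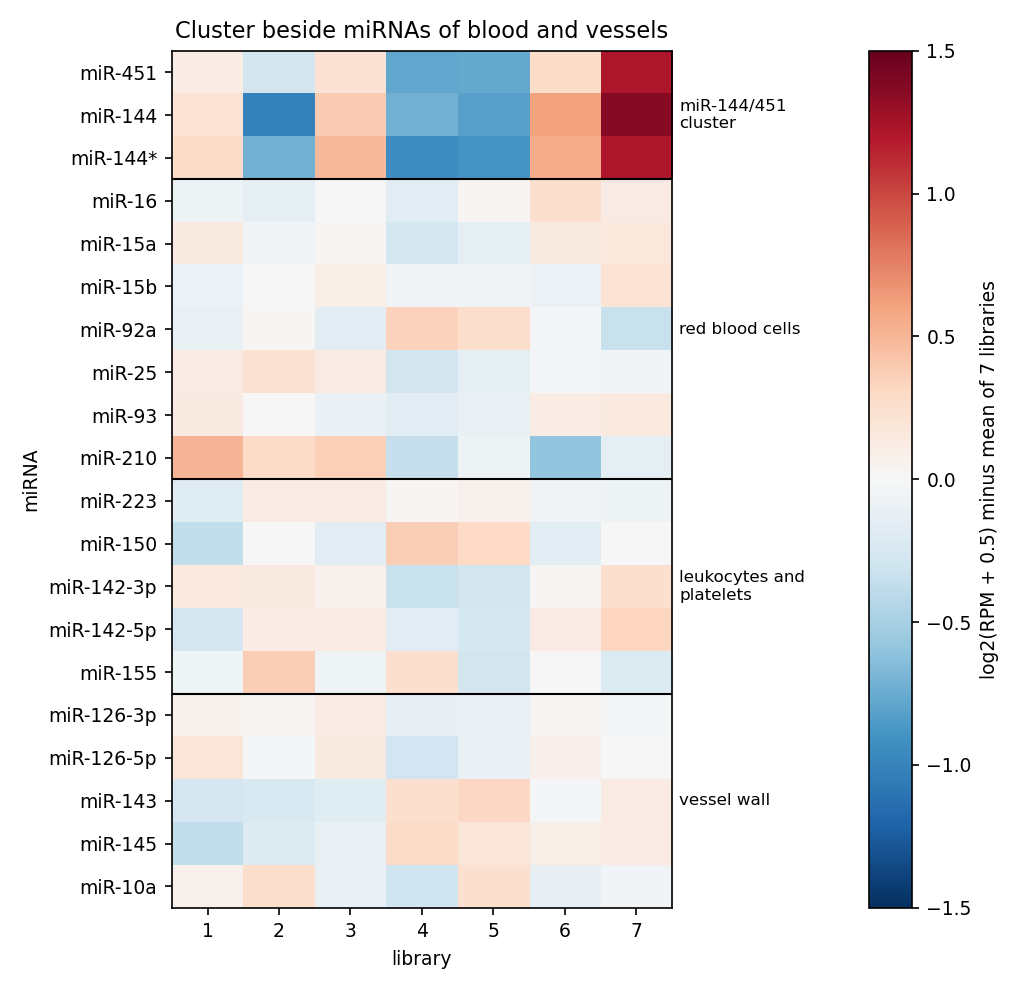
log2(RPM + 0.5) of each miRNA (vertical axis) in libraries 1 to 7 (horizontal axis), less its mean over the 7 libraries; red is above and blue below that mean. The cluster, in the top block, is blue in libraries 4 and 5 and deepest red in library 7, and in library 2 both strands of miR-144 are a deeper blue than miR-451. In the other blocks miR-210 reaches the strongest colours.

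miR-101a, which shares bases 2 to 7 with miR-144, was at 9839 to 13010 RPM, 1.32-fold between lowest and highest, and its mean was 1207 times that of miR-144. Its log2 difference between the trained groups as labelled was 0.25.

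Among 318 other miRNAs that averaged 100 reads or more, the 10 whose pattern over the 7 libraries was most like that of miR-451 had Pearson's r of 0.85 to 0.97, given as a description. They were miR-99a* (r = 0.97), miR-411, miR-379, miR-411*, miR-30a, miR-299, miR-30e, miR-15a, miR-551b and miR-376b. miR-99a*, the closest, was at 39.03, 36.05, 39.02, 32.80, 33.13, 37.34 and 43.02 RPM in libraries 1 to 7. The likeness is one of shape and not of size, since their highest library exceeded the lowest by 1.20-fold to 1.69-fold.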

How the data were processed

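Small RNA libraries were made with a TruSeq kit from pooled hippocampi, and the authors aligned inserts of 19 to 26 nt with Bowtie through ncPRO-seq to NCBI37/mm9; the submitters' processing notes also name CASAVA 1.7.0 and bedtools. The deposited value of each mature locus is a percent of the library's miRNA reads, without strand. The signal columns of the comparison tables hold the authors' mean reads divided by size factors; the authors' fold changes, p-values and variances, and 2 per-library columns, were set aside.

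Percentages were turned into RPM, and loci with the same sequence were averaged. The 806 loci gave 757 sequences, of which 687 were joined to a name, 580 by name and reads, 101 by family and reads and 6 by reads alone. Whole reads were worked out from the smallest step between percentages, which made 99.4% to 99.7% of the low values whole, within 0.136 to 0.150 reads. The members and lists were chosen with earlier results of these data known. Besides members and lists, the miRNAs named are those sharing a seed with a member and the 10 most like miR-451.

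limma 3.58.1 (R 4.3.3) was fitted to log2(RPM + 0.5) in the 4 labelled groups over the 476 miRNAs that averaged 10 reads or more, and p-values were adjusted by Benjamini-Hochberg, with a threshold of 0.05. In place of a rank test, which groups of 1 to 3 libraries cannot pass, this pooled the spread. Alternatives were edgeR 4.0.16 quasi-likelihood and DESeq2 1.42.0 Wald tests on recovered reads, their scalings, pseudocounts of 0.1 and 1, other read minimums, fits of only the groups compared, leaving out each library, and the trained libraries as the tables group them. Intervals are exact Poisson or binomial. Libraries of a group differed by more than counting noise, so none was taken for a library deposited again; whether they came from separate pools was not tested. Hairpins were folded with RNAfold 2.7.2. The code was tested on simulated data.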

Additional observations from a re-analysis of the deposited data

Results flagged for a closer look

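By the labels of the libraries, the estimated training effect had opposite signs in the 2 genotypes. The 3 members had lower estimates in trained than in non-trained controls, and both trained NIPP1* libraries were above the non-trained NIPP1* library for each, an order shared by 30.7% of the tested miRNAs. With the trained libraries exchanged this order held for miR-144 and for 10.5% of the tested miRNAs, and not for miR-451 or miR-144*. The difference of the training effects on the log2 scale was 1.58 for miR-451 (limma adjusted p = 0.696), 2.60 for miR-144 (limma adjusted p = 0.577) and 2.32 for miR-144* (limma adjusted p = 0.577). None passed the adjustment over 476 miRNAs. Over the alternatives the adjusted p ran from 0.148 to 0.997 for miR-451 and from 0.0881 to 0.997 for each strand of miR-144. With the trained libraries exchanged the values were -0.80, -0.15 and -0.35.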

How the results depend on the processing

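The grouping of the trained libraries turned the most directions. With it exchanged as in the deposited tables, the log2 differences of miR-451, miR-144 and miR-144* were -1.19, -1.37 and -1.33 for genotype in trained mice, 0.63, 0.78 and 0.62 for training in controls, -0.79, -1.30 and -1.16 for genotype over both states and -0.80, -0.15 and -0.35 for the difference of training effects, and that of miR-451 for training in NIPP1* mice was -0.16. The difference of miR-144 for genotype over both states was -0.0087 in edgeR and ran from -0.11 to 0.27 with 1 library left out, below 0 without library 4, 5 or 7. With 1 library left out there were 136 values, the differences of the members and the number of miRNAs called in each fit. Those 3 differences of miR-144 turned, and 133 values kept their side of the threshold and any direction they had. Leaving out a library moved the trained genotype difference of miR-451 between 0.72 (without library 7) and 1.65 (without library 6), with adjusted p from 0.0856 to 0.994 over all alternatives. DESeq2 called 1 miRNA for genotype in trained mice, 1 and 2 for training in controls and NIPP1* mice, 1 for training over both and 2 for the difference of training effects, against 0 in limma. In the non-trained pair, 14 miRNAs were past a log2 ratio of 1 among those averaging 10 reads or more and 3 among those averaging 100. A minimum mean of 100 reads leaves out both strands of miR-144, and leaving out a non-trained library ends the comparisons that need it. No paired analysis was possible because the labels give no replicate numbers and the non-trained groups hold 1 library each. Depth limits miR-144 most, with 30 to 216 reads in a library.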
